A study of Homo sapiens with 6 samples.

Results

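The ternary complex factors ELK1, ELK3 and ELK4, their partner SRF and 6 early genes that such factors are known to switch on (EGR1, FOS, FOSL1, JUN, JUNB and IER2) were examined in cells that overexpressed the tRNA-derived fragment (tRF) AS-tDR-007333. The genes were taken by symbol from a table of gene expression, and all 10 of them were found among its 12154 listed protein-coding genes. None of the 10 passed the threshold used for a difference between the groups. The 95% confidence interval of ELK4 ran from a fold of 0.889 to a fold of 1.09 on the FPKM + 1 scale.

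RNA-seq had been carried out on AS-tDR-007333-overexpressed cells (3 libraries) and on NC cells (3 libraries). The sample labels call both groups A549, a human lung adenocarcinoma line, and describe the first as given a plasmid for the tRF and the second as given an empty vector. The study's methods name PC9, another lung adenocarcinoma line, and a transfection of the fragment itself or of its NC that lasted 48 h, so the line and the transfected molecule differ between the sources. Whether replicate libraries stem from independent cultures is stated nowhere, and p-values then measure only how far these libraries scatter, which may be technical scatter.

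ELK1, ELK3 and ELK4 belong to the ETS family of transcription factors, whose DNA-binding domain reads a GGAA core. They dock on serum response factor, the product of SRF, which binds the CArG box, and MAP kinases phosphorylate them, so that growth factors and stress switch on immediate early genes without new protein synthesis. EGR1 encodes a zinc finger factor, FOS, FOSL1, JUN and JUNB encode subunits of the dimeric factor AP-1, and IER2 encodes a nuclear protein induced by growth factors. These genes are usually low in resting cells and are induced briefly, and much of the activity of the ternary complex factors is set by phosphorylation, which RNA-seq does not read. The study examined ELK4 as a regulator of MED29, a gene for a subunit of Mediator, the complex between transcription factors and RNA polymerase II, so MED29 is given beside the 10 genes. The study also reported that overexpressing the fragment raised ELK4 gene and protein expression in lung cancer cells, in assays separate from the RNA-seq.

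The sequences of AS-tDR-007333 and of its NC are shown because the methods name them as what set the groups apart, and both are 28 nt long.
Overexpressed fragment: gcauuggugguucagugguagaauucuu
NC fragment: gagaauuuugauggccguucuguaugug

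Promoters were searched for the motifs that these factors read, in RefSeq windows (GRCh38.p14) of 250 bases before to 50 bases after each start site, with positions counted from the start site. The ETS motif was searched as CCGGAAGT and as its shorter part CCGGAA, each on both strands, and the CArG box as CC and GG around a run of A or T. The windows held CCGGAAGT in 4.14%, CCGGAA in 17.2% and a CArG box in 1.29% of all 35116 promoters. Of the 10 genes, 9 had a window, and FOSL1 was not matched. The stretches with matches from ELK4, SRF, EGR1 and MED29 are shown because they carry the motifs of the factors described here, with the motifs in capitals and all in the 5′ to 3′ direction of the gene.
ELK4, chr1:205632012-205632061, minus strand: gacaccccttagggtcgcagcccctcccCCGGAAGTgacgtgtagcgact
SRF, chr6:43171189-43171268, plus strand: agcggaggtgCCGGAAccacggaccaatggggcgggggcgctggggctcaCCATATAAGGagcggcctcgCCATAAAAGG
EGR1, chr5:138465364-138465423, plus strand: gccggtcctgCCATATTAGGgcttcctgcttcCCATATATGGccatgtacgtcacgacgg
MED29, chr19:39391388-39391417, plus strand: gtcgtaacgcACTTCCGGcggtctacgcga

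The ELK4 promoter held CCGGAAGT from position -22 to -15 and a further CCGGAA from -185 to -180. The main SRF promoter held CCGGAA from -70 to -65 and CArG boxes from -30 to -21 and from -10 to -1. The EGR1 promoter held CArG boxes from -105 to -96 and from -83 to -74, and the IER2 promoter held CCGGAA from -26 to -21. In MED29, CCGGAAGT lay on the reverse strand from position 21 to 28, where it reads ACTTCCGG on the strand shown. The windows of ELK1, ELK3, FOS, JUN and JUNB held none of these motifs, which says only that these letters are not in those bases. A match by itself is a run of letters and not a site shown to be bound. For MED29, the study reported by ChIP-PCR that ELK4 bound the predicted regions of the promoter. In its luciferase assay, ELK4 raised the activity of the wild-type MED29 promoter, without a significant change for the mutant.

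**Figure D1:**
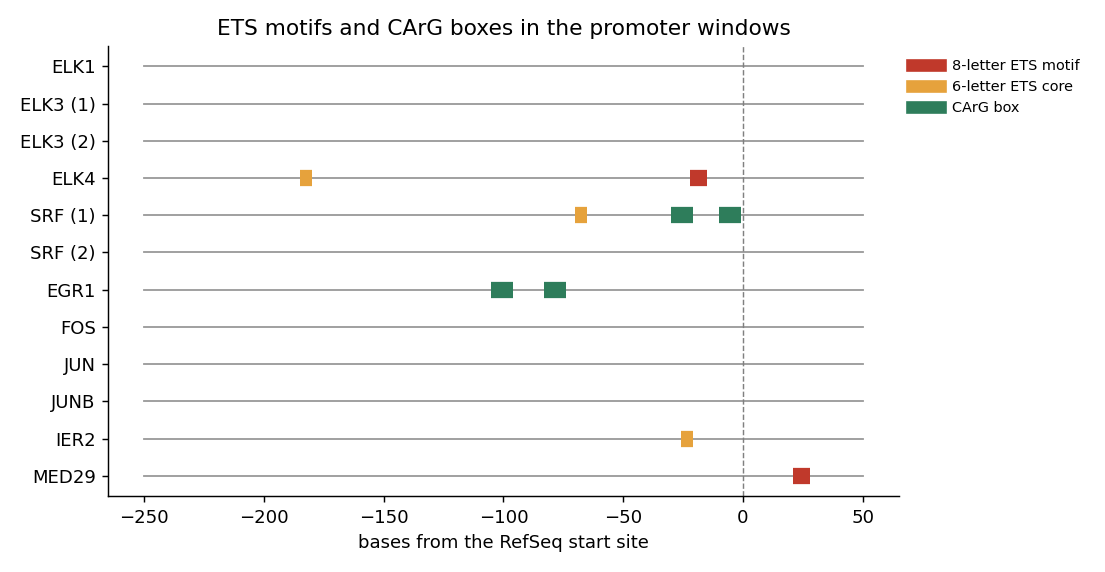
Positions of motif matches in the RefSeq promoter windows of 9 of the 10 genes and of MED29, in bases from the start site (dashed line); numbers in brackets are alternative start sites of 1 gene. The 8-letter ETS motif CCGGAAGT stands at -22 to -15 in ELK4 and at 21 to 28 in MED29, and CArG boxes stand in SRF and EGR1.

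The deposited values are FPKM (fragments counted per kilobase of gene and per mapped fragments of the library), a level that accounts for gene length and so can be compared between genes. The listed FPKM summed to 199110 to 202921 in AS-tDR-007333-overexpressed libraries and to 197324 to 201603 in NC libraries. The depth of each library is unknown, since read counts were not part of the data analysed here. NC replicate 1 stood apart from the other libraries on the first principal component (24.3% of the variance), at -18.0, against -1.53 to 0.61 in the AS-tDR-007333-overexpressed libraries and 9.44 to 9.91 in the other NC libraries. Of the 8 epithelial markers, 7 were listed (all but NKX2-1), with a summed level of 1596 to 1655 FPKM in AS-tDR-007333-overexpressed libraries and of 1476 to 1642 FPKM in NC libraries. Of 8 enzymes known to be high in A549, 7 were listed (all but ALDH1A1), at a summed 887 to 909 FPKM in AS-tDR-007333-overexpressed libraries and 891 to 901 FPKM in NC libraries. CDKN2A, which is homozygously deleted in A549, was however listed at 12.4 to 17.5 FPKM in AS-tDR-007333-overexpressed libraries and at 9.84 to 14.2 FPKM in NC libraries, which goes against the A549 label. Of 8 markers of immune, endothelial and fibroblast cells, CD68 and COL1A1 were listed, at a summed 17.8 to 22.7 FPKM in AS-tDR-007333-overexpressed libraries and 16.4 to 20.9 FPKM in NC libraries.

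Groups were compared on log2(FPKM + 1) with limma (a linear model that moderates each gene's variance) over the 11042 genes whose mean over the libraries reached 1 FPKM, among them all 10 genes. Calls required a p under 0.05 after Benjamini-Hochberg adjustment over all genes tested, and 7 genes were called, 4 higher and 3 lower in AS-tDR-007333-overexpressed cells (0.0634% of the genes tested). Of the 10 genes, 0 were called, and 0 had an unadjusted p under 0.05, against 3.61% of all genes tested (180 higher and 219 lower). These are bulk libraries, in which fewer cells with a transcript and less of it per cell cannot be told apart. The adjusted p from limma was 1 for each of the 10. Their median log2 fold change was -0.02, beside -0.01 over all genes tested, and the values ran from -0.19 to 0.09. The groups did not overlap for SRF alone, whereas they did not overlap for 8.76% of all genes tested, and with the AS-tDR-007333-overexpressed libraries higher for 3.58%. The threshold was thus reached by none of the factors or of their early genes, and the count without overlap is near the share among all genes.

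**Figure D2:**
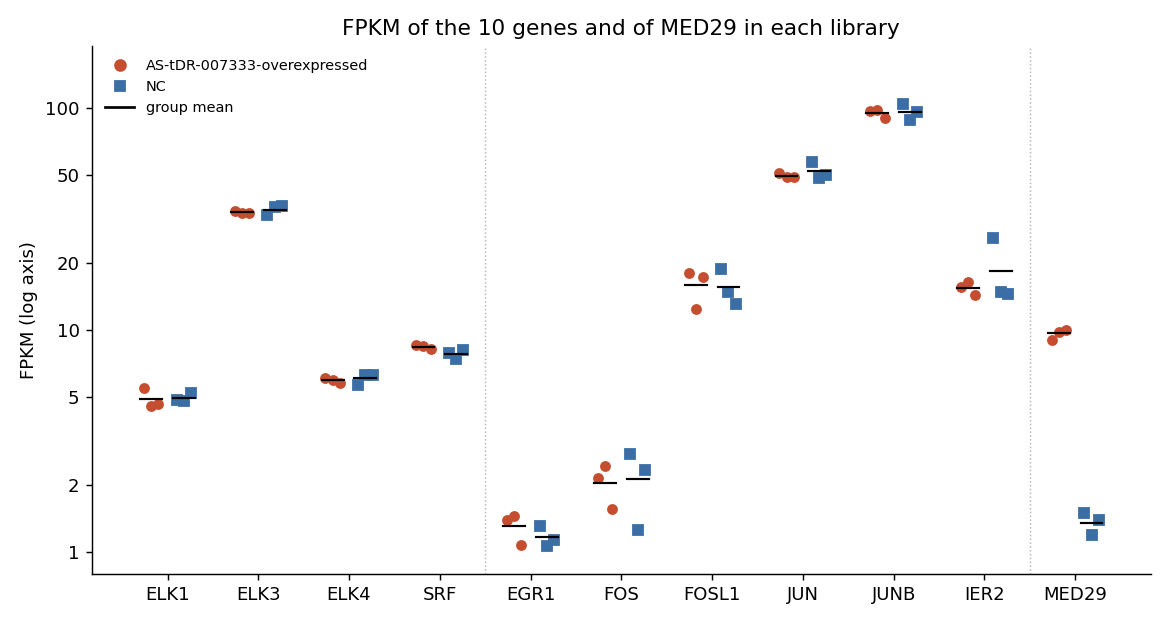
FPKM (log axis) of the 10 genes and of MED29 in each library, with AS-tDR-007333-overexpressed cells as circles and NC cells as squares (3 libraries each), replicates 1 to 3 from left to right within a group, and group means as bars. MED29 lies at 9.05 to 10.0 FPKM in AS-tDR-007333-overexpressed cells and between 1.19 and 1.49 FPKM in NC cells, while the points of both groups interleave for 9 of the 10 genes.

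ELK4 (ENSG00000158711) encodes the ternary complex factor SAP-1, and occupies positions 205566684 to 205601090 on the minus strand of chromosome 1 (GRCh37). It was listed at 6.06, 5.97 and 5.80 FPKM in AS-tDR-007333-overexpressed cells, against 5.66, 6.25 and 6.29 FPKM in NC cells. The AS-tDR-007333-overexpressed libraries lay between the lowest NC library, replicate 1, and the other NC libraries. The means were 5.94 ± 0.130 FPKM in AS-tDR-007333-overexpressed cells and 6.07 ± 0.353 FPKM in NC cells (SD, n = 3 each). The log2 fold change was -0.03 with a standard error of 0.06 (unadjusted p = 0.688 and adjusted p = 1 from limma), and the two-sided exact permutation test over the libraries gave p = 0.6, where 0.1 is the smallest that 3 libraries against 3 allow. The 95% confidence interval of the log2 fold change was -0.17 to 0.12, a fold of 0.889 to 1.09 on the FPKM + 1 scale. A larger change of ELK4 on that scale lies outside the interval. The log2 fold change was -0.07 without NC replicate 1 (adjusted p = 0.784 from limma), -0.006 without NC replicate 2 and -0.002 without NC replicate 3. An unmoderated per-gene model was also fitted, with each library's sum of log2(FPKM + 1) below its upper quartile as a covariate. In that model the log2 fold change of ELK4 was -0.09 (unadjusted p = 0.00304, adjusted p = 0.442). ELK4 shares 5363 bp with MFSD4A on the opposite strand in GENCODE release 44 mapped to GRCh37. MFSD4A was not among the listed genes, and whether the authors' counting used the strand is not stated.

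MED29 (ENSG00000063322, chromosome 19 of GRCh37 from 39881943 to 39891277) was listed at 9.05, 9.84 and 10.0 FPKM in AS-tDR-007333-overexpressed cells, against 1.49, 1.19 and 1.39 FPKM in NC cells. The ratio of mean FPKM was 7.10, with no overlap between the groups. On log2(FPKM + 1) the log2 fold change was 2.17 (adjusted p = 4.96e-04 from limma, exact permutation test p = 0.1). The ratio of means of ELK4 over the same libraries was 0.979. HSPB1, a small heat shock protein gene that the study also examined with MED29, was listed at 231, 218 and 233 FPKM in AS-tDR-007333-overexpressed cells, against 213, 207 and 219 FPKM in NC cells. Its log2 fold change was 0.09 (unadjusted p = 0.077, adjusted p = 1 from limma), with overlapping groups. For HSPB1 too, the study reported higher gene and protein expression after overexpression, in assays separate from the RNA-seq.

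ELK3 (also known as Net), on chromosome 12 from 96588160 to 96663613, can repress its targets until it is phosphorylated, and was the most abundant ternary complex factor. It was listed at 34.4, 33.7 and 33.8 FPKM in AS-tDR-007333-overexpressed cells, against 32.8, 35.6 and 36.0 FPKM in NC cells. Its libraries were ordered as for ELK4, with NC replicate 1 lowest and the other NC libraries highest, and the log2 fold change was -0.03 (95% confidence interval -0.16 to 0.09). It was -0.08 without NC replicate 1, -0.02 without NC replicate 2 and -0.01 without NC replicate 3, and in the unmoderated per-gene model it was -0.09 (unadjusted p = 0.0221, adjusted p = 0.522). Of the summed FPKM of ELK1, ELK3 and ELK4, ELK3 made up 74.8 to 76.3% in AS-tDR-007333-overexpressed libraries and 75.8 to 76.3% in NC libraries. ELK4 made up 13.1 to 13.5% in AS-tDR-007333-overexpressed libraries and 13.1 to 13.4% in NC libraries. The order ELK3, ELK4, ELK1 thus held in every library, with ELK1 taking 10.3 to 12.0% in AS-tDR-007333-overexpressed libraries and 10.3 to 11.2% in NC libraries.

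ELK1, the best studied ternary complex factor, lies on the X chromosome from 47494920 to 47510003 on the minus strand. It was listed at 5.50, 4.57 and 4.66 FPKM in AS-tDR-007333-overexpressed cells, against 4.84, 4.81 and 5.19 FPKM in NC cells. The AS-tDR-007333-overexpressed libraries held both its highest and its lowest values, and the log2 fold change was -0.01 (95% confidence interval -0.20 to 0.18).

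SRF, on chromosome 6 from 43139037 to 43149245, encodes the factor on which both the ternary complex factors and the actin-controlled cofactors of the MRTF family act. It was listed at 8.56, 8.49 and 8.18 FPKM in AS-tDR-007333-overexpressed cells, against 7.90, 7.43 and 8.13 FPKM in NC cells. Every AS-tDR-007333-overexpressed library lay above every NC library, by a gap between the nearest pair that was smaller than the spread within either group. The means were 8.41 ± 0.204 FPKM in AS-tDR-007333-overexpressed cells and 7.82 ± 0.356 FPKM in NC cells (SD, n = 3 each), a log2 fold change of 0.09 (95% confidence interval -0.04 to 0.23, unadjusted p = 0.139 and adjusted p = 1 from limma, exact permutation test p = 0.1). SRF was not called, and over all alternatives its log2 fold change lay between 0.06 and 0.12.

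**Figure D3:**
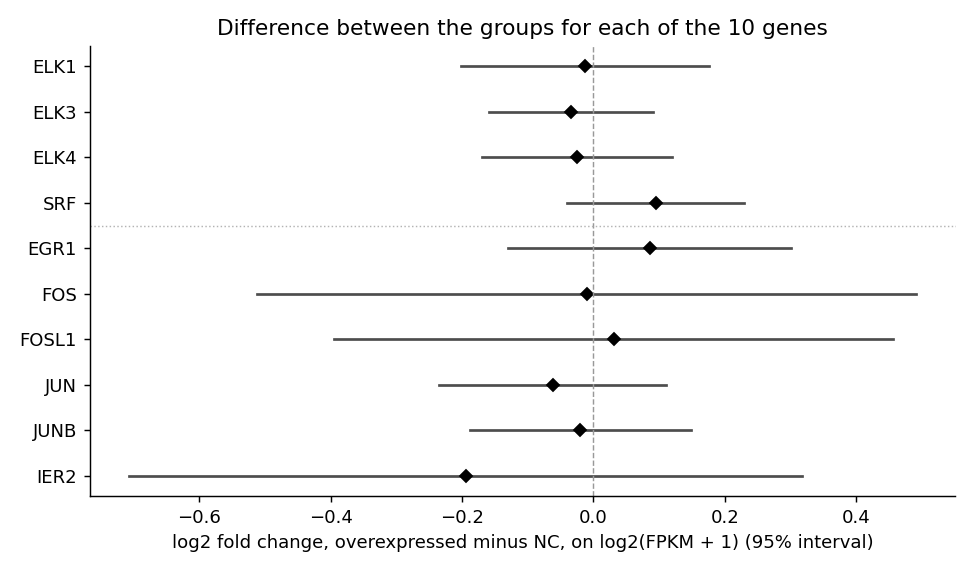
Log2 fold change (AS-tDR-007333-overexpressed minus NC cells, on log2(FPKM + 1)) of each of the 10 genes with its 95% confidence interval from limma, factors above the dotted line and early genes below it. Every interval holds 0, and the intervals of FOS, FOSL1 and IER2 are the widest.

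Among the early genes, JUNB was the most abundant and EGR1 the least abundant. JUNB, on chromosome 19 from 12902310 to 12904129, was listed at 96.6, 97.5 and 90.1 FPKM in AS-tDR-007333-overexpressed cells, against 104, 88.6 and 95.6 FPKM in NC cells. JUN, on chromosome 1 from 59246460 to 59249999, was listed at 50.9, 48.8 and 48.6 FPKM in AS-tDR-007333-overexpressed cells, against 57.3, 48.5 and 49.6 FPKM in NC cells. For both JUN genes NC replicate 1 was the highest of the 6 libraries, while the groups overlapped among the other 5. The log2 fold changes were -0.02 for JUNB (95% confidence interval -0.19 to 0.15) and -0.06 for JUN (-0.23 to 0.11), and without NC replicate 1 they were 0.04 and 0.01. JUNB lies wholly within HOOK2, which is on the opposite strand and was listed at 9.13 to 11.8 FPKM.

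FOS, on chromosome 14 from 75745477 to 75748933, was low, with 2.15, 2.45 and 1.57 FPKM in AS-tDR-007333-overexpressed cells, against 2.76, 1.26 and 2.35 FPKM in NC cells. The NC libraries alone spanned its whole range, and the log2 fold change was -0.01 with a 95% confidence interval of -0.51 to 0.49. FOSL1, on chromosome 11 from 65659520 to 65668044, which encodes the FOS relative FRA-1, was listed at 18.1, 12.5 and 17.3 FPKM in AS-tDR-007333-overexpressed cells, against 18.9, 14.8 and 13.1 FPKM in NC cells. Its log2 fold change was 0.03 (95% confidence interval -0.40 to 0.46), with 1 low library in AS-tDR-007333-overexpressed cells and 1 high library in NC cells. On the FPKM + 1 scale, the intervals correspond to folds of 0.701 to 1.41 for FOS and of 0.760 to 1.37 for FOSL1. Changes of that size on that scale could not be told from none. For a low gene such as FOS the scale understates the fold of FPKM itself, so wider folds of FPKM also lie inside the interval.

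EGR1, on chromosome 5 from 137801179 to 137805004, was listed at 1.39, 1.45 and 1.07 FPKM in AS-tDR-007333-overexpressed cells, against 1.31, 1.07 and 1.13 FPKM in NC cells. Its mean level was above that of 12.4% of the listed genes, the lowest of the 10, and its log2 fold change was 0.09 (95% confidence interval -0.13 to 0.30). IER2, on chromosome 19 from 13261229 to 13265722, was listed at 15.6, 16.4 and 14.4 FPKM in AS-tDR-007333-overexpressed cells, against 25.9, 14.9 and 14.5 FPKM in NC cells. NC replicate 1 was 1.58 times the next highest library, and the groups overlapped among the other 5 libraries. IER2 and ELK3 each overlap long noncoding genes on the opposite strand, which were not among the listed genes. The log2 fold change of IER2 was -0.19 (95% confidence interval -0.71 to 0.32), and without NC replicate 1 it was 0.06 (adjusted p = 0.827 from limma).

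The order of mean level over the 6 libraries was JUNB (95.5 FPKM), JUN (50.6), ELK3 (34.4), IER2 (17.0), FOSL1 (15.8), SRF (8.12), ELK4 (6.01), ELK1 (4.93), FOS (2.09) and EGR1 (1.24). Neighbours in this order overlapped in their ranges over libraries for IER2 and FOSL1 and for FOS and EGR1, while the other 7 neighbouring pairs did not overlap. FOS and EGR1, the early genes that respond most sharply to ternary complex factors in other settings, were thus at the bottom of the order in cells of either group.

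NC replicate 1 was the highest library for 5 of the 6 early genes, all but EGR1, and for 0 of the 3 ternary complex factors and SRF. Over all genes tested, it was the highest library for 26.4%, and among 29 further immediate early genes described below, for 9 (31%). It was the lowest library for ELK3 and ELK4. Leaving it out, the groups did not overlap for ELK3 and ELK4, with AS-tDR-007333-overexpressed cells lower, or for SRF, with AS-tDR-007333-overexpressed cells higher. With 3 libraries against 2, 25.6% of all genes tested did not overlap. The part of this library's separation in the difference between the groups for these genes was not tested.

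**Figure D4:**
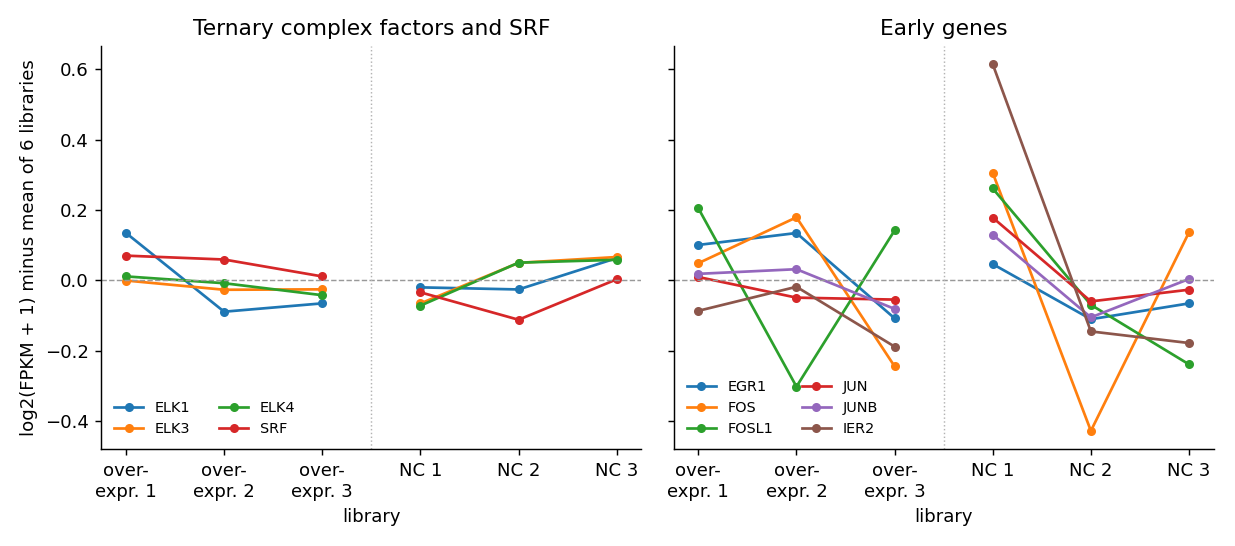
Deviation of log2(FPKM + 1) from the mean of the 6 libraries for the 3 ternary complex factors and SRF (left panel) and for the 6 early genes (right panel), in the 3 AS-tDR-007333-overexpressed libraries and then the 3 NC libraries; lines join libraries only to follow a gene. All 6 early genes lie above their own mean in NC replicate 1, where IER2 is the farthest out.

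The range over the 6 libraries, on log2(FPKM + 1), was 0.13 for ELK4 and for ELK3, the narrowest of the 10, and 0.80 for IER2, the widest of the 10. The median range over all genes tested was 0.26, and 3 of the 10 genes (FOS, FOSL1 and IER2) were wider than this and 7 narrower. Among the 5 genes with the profile most like that of ELK4, by the root mean square difference of centred log2(FPKM + 1) over the 6 libraries, were LZIC, LMAN1, ELK3 and PGK1 (0.0114 to 0.0127, against a median of 0.103 over all genes tested). LZIC was listed at 10.9, 10.9 and 10.5 FPKM in AS-tDR-007333-overexpressed cells, against 10.2, 11.0 and 11.4 FPKM in NC cells. For IER2 the 5 most alike were PRDX2, LMLN, MAFK, MAZ and PPM1M (0.0491 to 0.055, against a median of 0.292). MAZ was listed at 31.4, 30.2 and 28.0 FPKM in AS-tDR-007333-overexpressed cells, against 52.6, 28.0 and 28.3 FPKM in NC cells, and so shared the single high library.

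Further immediate early genes were read from a list of 37, of which 30 were listed and 29 tested. MAFF, a small MAF factor that dimerises with AP-1 relatives, was the only one called. It was listed at 2.30, 3.29 and 3.59 FPKM in AS-tDR-007333-overexpressed cells, against 9.04, 8.97 and 9.04 FPKM in NC cells, so every AS-tDR-007333-overexpressed library lay below every NC library (log2 fold change -1.32, standard error 0.13, adjusted p = 0.044 from limma). Without AS-tDR-007333-overexpressed replicate 1 it stayed called (adjusted p = 0.0188), and it was not called without any other single library (0.0583 to 0.14), with a pseudocount of 0.1 (0.0666), with a replicate block (0.234) or in the unmoderated per-gene model (0.444). RHOB, a small GTPase gene, and NR4A2, an orphan nuclear receptor gene, had an unadjusted p under 0.05 and were not called. RHOB was listed at 21.4, 21.0 and 20.3 FPKM in AS-tDR-007333-overexpressed cells, against 23.6, 23.1 and 22.7 FPKM in NC cells (log2 fold change -0.14). NR4A2 was listed at 0.719, 1.02 and 0.888 FPKM in AS-tDR-007333-overexpressed cells, against 1.19, 1.12 and 1.21 FPKM in NC cells (log2 fold change -0.22). SIK1, a kinase gene, followed with a log2 fold change of -0.39 (unadjusted p = 0.0569), with 4.83, 8.34 and 7.16 FPKM in AS-tDR-007333-overexpressed cells, against 9.51, 8.73 and 8.79 FPKM in NC cells. In all, 1 of the 29 was called lower and 0 higher, an unadjusted p under 0.05 was found for 3 lower and 0 higher genes, and the median log2 fold change was -0.01, as over all genes tested. Over the 11042 genes tested, 0.0634% were called and 3.61% had an unadjusted p under 0.05. The groups did not overlap for 5 of the 29, against 8.76% of all genes tested, with MAFF, RHOB, NR4A2 and SIK1 lower in AS-tDR-007333-overexpressed cells and KLF4, a zinc finger factor gene named after its values were seen, higher. KLF4 was listed at 20.2, 21.4 and 21.2 FPKM in AS-tDR-007333-overexpressed cells, against 19.8, 19.5 and 20.1 FPKM in NC cells (log2 fold change 0.07, unadjusted p = 0.164). The 3 genes below that p became 1 with a replicate block or without AS-tDR-007333-overexpressed replicate 3.

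SRF also drives actin and adhesion genes through the MRTF cofactors, so 22 such genes were read as a second arm of its activity. Of the 19 tested, 0 were called and 0 had an unadjusted p under 0.05 by limma, beside 0.0634% and 3.61% of all genes tested. The median log2 fold change was 0.00 (0.00379). The smallest p belonged to MYL9, a myosin light chain gene, with a log2 fold change of -0.17 (unadjusted p = 0.0855), and to ACTB, beta-actin, with 0.08 (unadjusted p = 0.108). FILIP1L and VCL, which encodes vinculin, had log2 fold changes of -0.43 and 0.31 with unadjusted p of 0.196 and 0.223. Of the cofactors, MKL1 (MRTF-A) had a log2 fold change of 0.04. MKL2 (MRTF-B) was listed at 1.70, 5.42 and 5.07 FPKM in AS-tDR-007333-overexpressed cells, against 2.04, 1.77 and 1.62 FPKM in NC cells, so that 2 of the libraries were high and the remaining AS-tDR-007333-overexpressed library lay among the NC libraries (log2 fold change 0.75, unadjusted p = 0.0592, adjusted p = 1 from limma).

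**Figure D5:**
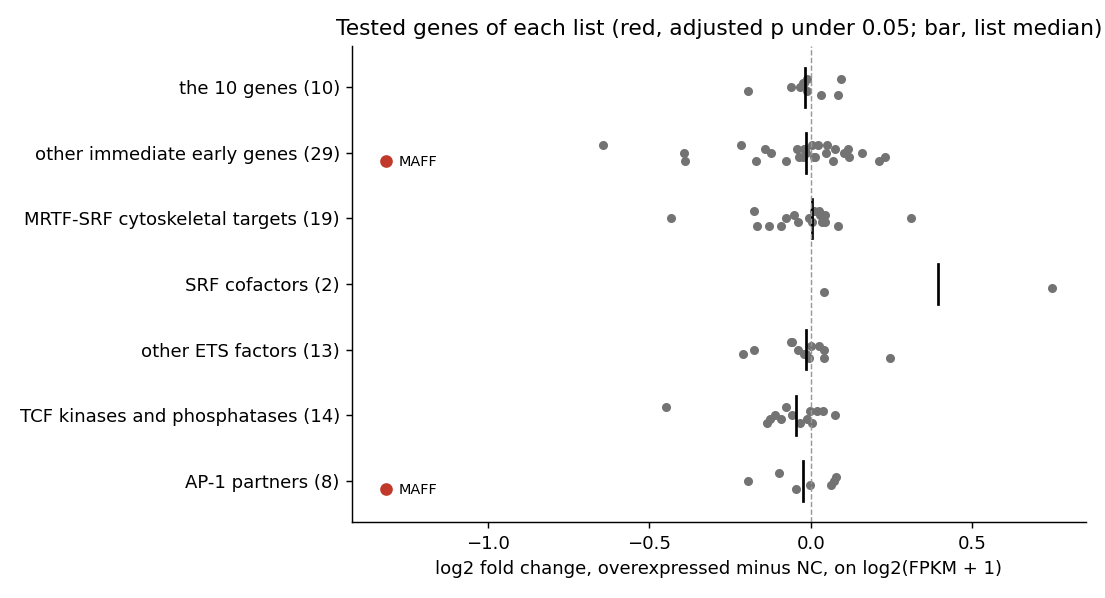
Log2 fold change (AS-tDR-007333-overexpressed minus NC cells, on log2(FPKM + 1)) of each tested gene in 7 lists, with the number tested in brackets, the list median as a bar and called genes in red. MAFF, at -1.32, stands in the lists of other immediate early genes and of AP-1 partners and is the only called gene, while most genes of every list but the 2 SRF cofactors lie close to 0.

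Other ETS factors can read the same GGAA core. Of 23 such genes, 13 were tested and 0 were called. ELF1 was listed at 16.2, 17.8 and 15.8 FPKM in AS-tDR-007333-overexpressed cells, against 19.3, 21.3 and 17.5 FPKM in NC cells (log2 fold change -0.21, unadjusted p = 0.0452), and was the only one at an unadjusted p under 0.05. GABPA, the ETS subunit of GABP, was listed at 6.19, 6.33 and 6.23 FPKM in AS-tDR-007333-overexpressed cells, against 6.50, 7.84 and 7.27 FPKM in NC cells (log2 fold change -0.17, unadjusted p = 0.0502), with no overlap between the groups. EHF had a log2 fold change of 0.25 and ETS2 of 0.04, with unadjusted p of 0.246 and 0.453. The median of the 13 was -0.01. Over all genes tested, 0.0634% were called, 3.61% had an unadjusted p under 0.05 by limma and 8.76% had groups without overlap.

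Of 15 genes for kinases of the ternary complex factors, kinases next to them in the pathway and calcineurin, 14 were tested, with 0 called and 0 at an unadjusted p under 0.05 by limma. Their median log2 fold change was -0.05. The smallest p belonged to MAPK9, which encodes JNK2, at 4.51, 4.27 and 4.41 FPKM in AS-tDR-007333-overexpressed cells, against 5.05, 4.69 and 4.75 FPKM in NC cells (log2 fold change -0.11, unadjusted p = 0.0922), with no overlap between the groups. PPP3CB, a catalytic subunit of calcineurin, had a log2 fold change of -0.08, and RPS6KA1, a ribosomal S6 kinase gene, of -0.14. Of 10 AP-1 partners, 8 were tested and MAFF, already counted among the immediate early genes, was the only one called. Beside both lists, 0.0634% of all genes tested were called, 3.61% had an unadjusted p under 0.05 by limma and 8.76% had groups without overlap. ATF4 was listed at 153, 154 and 157 FPKM in AS-tDR-007333-overexpressed cells, against 148, 147 and 148 FPKM in NC cells, without overlap (log2 fold change 0.06, unadjusted p = 0.109). BATF and MAFK had log2 fold changes of 0.08 and -0.19, and MAFK was 20.9 FPKM in NC replicate 1 and 11.5 to 13.0 FPKM in the other libraries.

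Genes with the ETS motif in their promoter were described in the same fit, a choice made after the values had been seen. Of the 11042 genes tested, 9048 (81.9%) were matched to a promoter window, and 991 of these (11.0%) held CCGGAAGT. Among them, calls numbered 3 higher and 0 lower, and an unadjusted p under 0.05 was found for 15 higher and 26 lower genes (4.14%, beside 3.64% of all matched genes). Their median log2 fold change was -0.01, with quartiles of -0.07 and 0.04. Over all matched genes the median was -0.01 and the quartiles were -0.07 and 0.05. The 3 called genes were MED29, MED18, which encodes another Mediator subunit (log2 fold change 1.42), and RPL7L1 (log2 fold change 0.68). They made up 3 of the 7 genes called in all, and this count was read from genes already known to be called. With CCGGAA in place of CCGGAAGT, 3318 genes were tested, 3 were called higher and 1 lower, and the median was -0.01. The lower gene was MAFF. Of 138 genes with a CArG box, SCHIP1 was the only one called (higher), beside 4 higher and 3 lower among all 9048 matched genes. The median of the CArG box genes was 0.00 (-0.00424). Without NC replicate 1, the median was 0.01 for the genes with a CArG box and -0.01 for those with CCGGAAGT, beside -0.01 over all matched genes, so the sign turned for the CArG box genes.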

How the data were processed

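The authors deposited FPKM of genes. According to their methods, reads were trimmed with StringTie, mapped to GRCh37 with HISAT2, and FPKM came from Ballgown. HISAT2 2.0.5 and also featureCounts 1.5.0-p3 stand in the submitters' processing notes. The larger group mean was 0.5 FPKM or more for every listed gene, so lower genes are not measured here. FPKM is relative to the mapped fragments of a library.

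From the deposited FPKM, log2(FPKM + 1) was compared with limma 3.58.1 (R 4.3.3, mean-variance trend, no covariates) over the 6 libraries, for genes whose mean reached 1 FPKM. The fit was also run on simulated data with independent noise and no library set apart, unlike NC replicate 1 here. The outcome of that run is not given. Fold changes are on this scale and understate changes of low genes. Promoters came from RefSeq, and overlaps from GENCODE release 44 mapped to GRCh37. Figures were drawn with matplotlib 3.10.9. The genes and lists were chosen with earlier results of these data known. Named were the 10 genes, MED29, HSPB1, in each list every called gene and up to 4 genes with the smallest p, and the 5 profiles most like those of ELK4 and IER2. Some genes that this rule names are not reported here. HOOK2, MFSD4A, MED18, RPL7L1, SCHIP1 and KLF4 were named after their values were seen. The alternatives were median-of-ratios rescaling, a pseudocount of 0.1, a filter at 5 FPKM or none, a per-gene model after Ballgown, the replicate number as a block and leaving out each library. The per-gene model was unmoderated, with each library's sum of log2(FPKM + 1) below its upper quartile as a covariate. The alternatives for MAFF, the shorter motif and the promoter genes without NC replicate 1 were added after the data were seen.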

Additional observations from a re-analysis of the deposited data

How the results depend on the processing

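Of the 10 genes, 0 were called under any alternative tried. ELK4 kept a log2 fold change below 0 throughout, at -0.09 to -0.002 (adjusted p = 0.442 to 1 from limma and the Ballgown-style model). ELK1, EGR1 and FOS lay below the filter at a mean of 5 FPKM and have no value there. Over all genes, 7 calls became 0 with the Ballgown-style per-gene model, 1 with the replicate block and 1 to 18 without single libraries (18 without NC replicate 1, 14 without NC replicate 2, 11 without AS-tDR-007333-overexpressed replicate 2 and 1 without NC replicate 3). The sign turned for FOS with a pseudocount of 0.1 (0.00104), and with the Ballgown-style model for FOS (0.114), IER2 (0.10), JUN (0.0153) and JUNB (0.0339). Leaving out single libraries, the log2 fold change ran from -0.0831 to 0.0288 for ELK1, -0.0756 to -0.00962 for ELK3, 0.0396 to 0.161 for EGR1, -0.226 to 0.140 for FOS, -0.0808 to 0.189 for FOSL1, -0.332 to 0.0639 for IER2, -0.107 to 0.0117 for JUN and -0.0772 to 0.0404 for JUNB, and 1 to 3 of the 10 genes had groups without overlap (2 without AS-tDR-007333-overexpressed replicate 1 or 3, and 3 without NC replicate 1). Without NC replicate 1, 25.6% of all genes tested had groups without overlap. That share is not available here for the other libraries left out, so those counts have no comparison. The causes of these changes were not tested. Groups of fewer libraries overlap less often by construction. MED29 lost its call with the Ballgown-style model (2.25 on the log2 scale, adjusted p = 0.194). The replicate block left ELK4 at -0.03 (adjusted p = 1 from limma), and same-numbered libraries did not deviate together (correlations across genes of -0.0134, 0.0106 and -0.0054), so the numbers were not taken to pair the libraries. For the genes with CCGGAAGT in the promoter, the median of -0.01 stayed at -0.01 with CCGGAA and without NC replicate 1. The 3 libraries per group and the unknown depth limit what could be seen, most for FOS, FOSL1 and IER2, whose intervals were the widest.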
